A study of Arabidopsis thaliana with 6 samples.

Results

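The ERECTA receptor family and its EPFL peptide ligands were followed in RNA from Arabidopsis thaliana ovules of wild type and of the sgd mutant. The set holds 10 genes, chosen by their locus identifiers among the 30457 features of each library. They are the receptor kinase genes ER (AT2G26330), ERL1 (AT5G62230) and ERL2 (AT5G07180), the receptor-like protein gene TMM (AT1G80080), and the peptide genes EPFL1 (AT5G10310), EPFL2 (AT4G37810), EPFL4 (AT4G14723), EPFL5 (AT3G22820), EPFL6 (AT2G30370) and EPFL9 (AT4G12970). Each genotype had 3 libraries of poly(A) RNA. Both genotypes carried the qrt1 background, in which pollen grains stay together in tetrads, and ovules were taken at FG1 to FG3, the earliest stages of the embryo sac. The design text speaks of about 6000 ovules, without saying whether per library. Ovules were therefore pooled, and the labels do not tie a library to a plant, so p-values measure the spread between these libraries only. The labels name no mutated locus for sgd, so no transcript served to check the genotype.

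ERECTA-type receptors are leucine-rich repeat kinases of the plasma membrane. They bind secreted cysteine-rich peptides of the EPF and EPFL family, act with SERK co-receptors, and signal through a MAP kinase cascade headed by YDA. TMM lacks a kinase domain and changes which peptides the receptors respond to in the epidermis. The family is known for stem and inflorescence growth, stomatal spacing and leaf margins, and in ovules for growth of the integuments and for the spacing of ovules along the placenta.

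Levels are deposited FPKM, fragment numbers scaled to transcript length and library depth, and 3 values in a row are libraries 1, 2 and 3 in that order. A change is the sgd mean less the wild-type mean of log2(FPKM + 1), tested with limma over 18100 features with a mean of at least 1 FPKM and called at a Benjamini-Hochberg adjusted p under 0.05. As deposited, 13.3% of tested features were called higher and 4.47% lower, 2407 and 809 features. The split depended on scaling, with 4135 higher and 2628 lower after rescaling to equal totals, 3477 and 3393 after median-ratio scaling, and 3146 and 3726 after quantile normalization. With the replicate number as a block it was 4793 and 2583. It was 5690 and 3097 without both replicate 1 libraries. With array quality weights, which did not reach their convergence tolerance, it was 8190 and 4421. So many features passed under these choices that passing there sets a gene less apart. The median feature changed by 0.13, or by -0.02 once median-ratio scaling was applied. The share of all tested features at an unadjusted p under 0.05 was not counted. It is at least the 17.8% called in either direction after adjustment. Counts of list genes at an unadjusted p therefore have no background beside them and are description only.

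Library 1 of each genotype stood apart. Chloroplast and mitochondrial loci held 2.18% and 2.08% of summed FPKM there and at most 0.0733% in the other libraries. The summed FPKM itself was 528715 and 561173 in library 1 of wild type and sgd, against 750410 to 796250 in the other libraries. Estimated depth was 25400000, 33800000 and 40900000 fragments in wild type, against 24300000, 13600000 and 12700000 in sgd. Results are therefore also given without both replicate 1 libraries. The ovule label was checked with the outer integument gene INO and the ovule identity gene STK. INO stood at 32.2, 124 and 133 FPKM in wild type, against 41.8, 74.5 and 76.5 FPKM in sgd, and its groups overlapped. STK stood at 341 to 750 FPKM in wild type and 114 to 314 FPKM in sgd. Its groups did not overlap, and its change of -1.41 did not pass (limma adjusted p = 0.0818). Both genes were thus present in all libraries, but STK was not at equal level in the genotypes. WUS, a gene of the nucellus, was at most 0.03 FPKM. Other integument and nucellus genes, of which ANT and BEL1 were called lower in sgd, are counted below.

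Among the receptor kinases ERL2 fell in sgd ovules, ERL1 was lower in every sgd library but just missed the threshold, and ER overlapped between genotypes. Among the peptides EPFL2 and EPFL6 fell and EPFL5 and EPFL9 rose. Of the 9 members that passed the filter, 2 were called higher, against 13.3% of all tested features, and 3 lower, against 4.47%. TMM was the member under the filter. The 3 sgd values lay above all wild-type values for 3 members and below them for 4, where 26.8% and 8.8% of all tested features did so (7 of 9 members and 35.6% of features in either direction). The median change of the 9 members was -0.20. These counts were not tested, because the members were chosen with results of these data known.

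**Figure D1:**
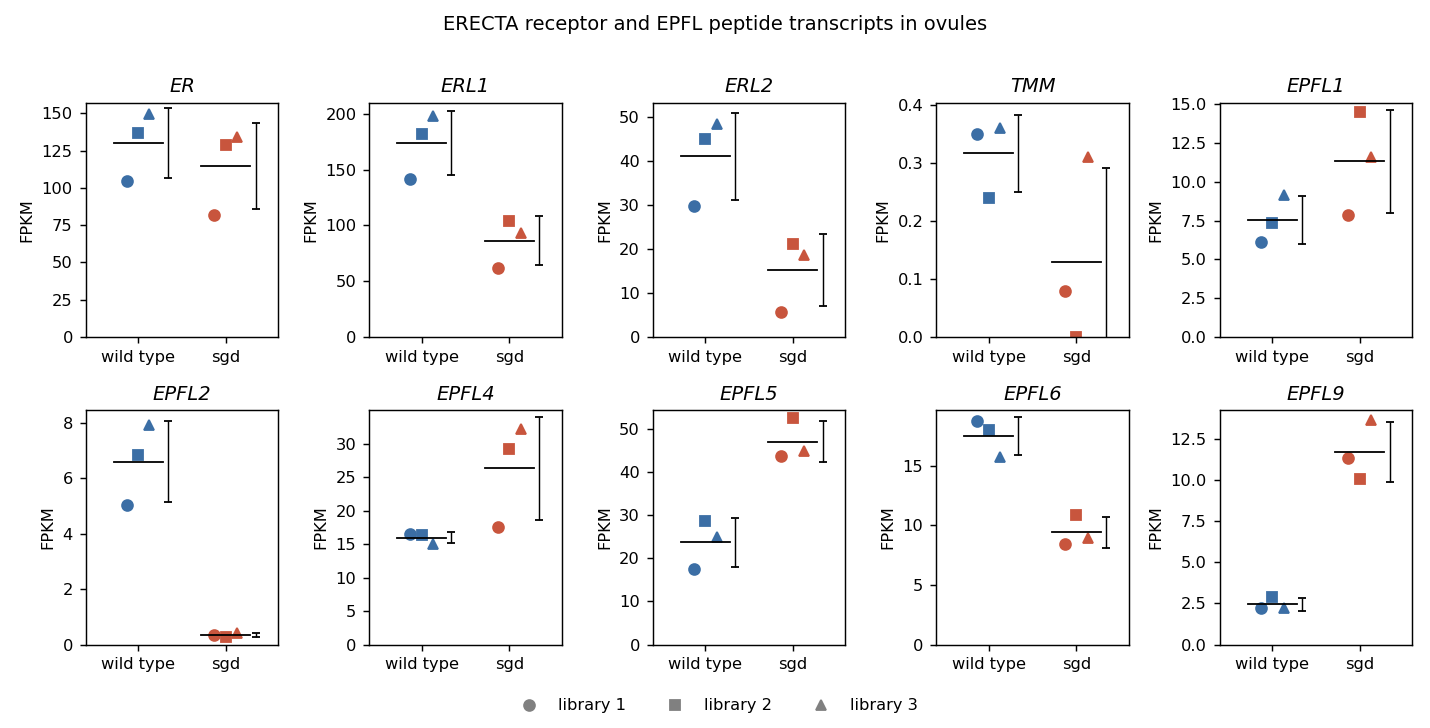
FPKM (vertical axis, linear, from 0, each gene on its own scale) of the 10 genes in 3 wild-type (blue) and 3 sgd (red) libraries. Horizontal lines are means, bars at the side are ± 1 SD (that of TMM in sgd runs below 0 and is not drawn there), and marker shape gives the library number. EPFL2 goes from 5.03 to 7.92 FPKM in wild type to at most 0.42 FPKM in sgd, while ER overlaps between genotypes.

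ER encodes the receptor after which the family is named. It stood at 104, 137 and 149 FPKM in wild type, against 81.8, 128 and 134 FPKM in sgd. The groups overlapped, and in both genotypes library 1 was the lowest. The means were 130.1 ± 23.3 and 115 ± 28.8 FPKM (SD, n = 3), and the change of -0.20 did not pass (SE 0.33, limma adjusted p = 0.761). Its 95% interval ran from -0.92 to 0.53, so a moderate fall or rise could not be told from none. Relative to the median of all features the change was -0.32. With median-ratio scaling ER was called lower, by -0.35 (limma adjusted p = 0.0295, and 0.0387 with the block as well). Without sgd library 1 the change was 0.03 (limma adjusted p = 0.958).

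ERL1, a close relative of ER that overlaps with it in function, was the most abundant member in wild type. It stood at 142, 182 and 198 FPKM in wild type, against 62.2, 104 and 92.9 FPKM in sgd. All sgd values lay below all wild-type values. The change was -1.02 (SE 0.32), which narrowly missed the threshold (limma adjusted p = 0.0548). With the replicate block it passed at the same size (limma adjusted p = 0.00644), and without both replicate 1 libraries the change was -0.94 (limma adjusted p = 0.00216). It also passed without wild-type library 1, at -1.16 (limma adjusted p = 0.0487), with all 3 other scalings (limma adjusted p from 0.0014 to 0.00189), with eBayes without a trend (limma adjusted p = 0.0384) and with array quality weights (limma adjusted p = 1.79e-06). In sgd minus wild-type pairs of the same number the difference was -1.17, -0.80 and -1.08.

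ERL2, the third receptor kinase, stood at 29.8, 44.9 and 48.3 FPKM in wild type, against 5.76, 21.1 and 18.7 FPKM in sgd. The groups did not overlap, and sgd library 1 was far below the other sgd libraries. ERL2 fell by 1.52 (SE 0.43, limma adjusted p = 0.0345). Without both replicate 1 libraries the change was -1.19 (limma adjusted p = 0.0014). Leaving out any one wild-type library ended the call, with limma adjusted p = 0.0702 (library 1), 0.0766 (library 2) and 0.0818 (library 3), and so did testing with no filter on low levels (limma adjusted p = 0.088). Without sgd library 1 it was -0.98, the largest shift from leaving out any one library.

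Within each library the receptors could be compared without any scaling between libraries. The ratio of ERL1 to ER was 1.36, 1.33 and 1.33 in wild type, against 0.761, 0.812 and 0.691 in sgd. ERL1 exceeded ER in every wild-type library and lay below it in every sgd library. The ratio of ERL2 to ER was 0.286, 0.329 and 0.324 in wild type and 0.0704, 0.164 and 0.139 in sgd, again without overlap. ER thus held 37.7% ± 0.107 of the summed FPKM of the 3 kinases in wild type and 53.3% ± 2.32 in sgd (SD, n = 3). The sum itself was 276, 363 and 396 FPKM in wild type, against 149.8, 254 and 246 FPKM in sgd. These ratios and shares were set up after the levels were seen and are given without a test.

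**Figure D2:**
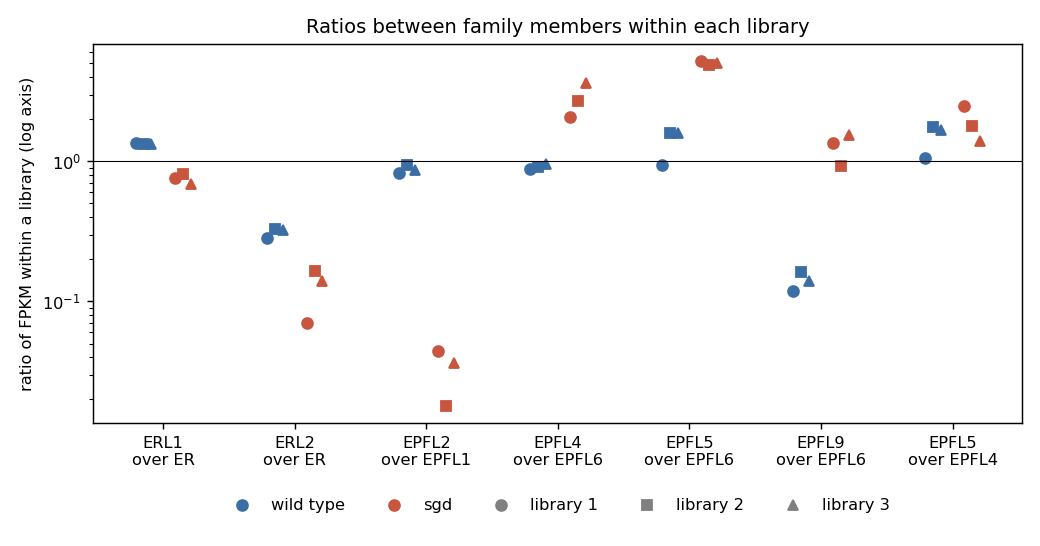
Ratio of the FPKM of pairs of members within each library (vertical log axis) in wild type (blue) and sgd (red), with marker shape for the library number. ERL1 over ER lies at 1.33 to 1.36 in wild type and 0.691 to 0.812 in sgd; EPFL5 over EPFL4, at the right, overlaps between genotypes.

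TMM was near the lower limit of these libraries. It was listed at 0.35, 0.24 and 0.36 FPKM in wild type, against 0.08, 0 and 0.31 FPKM in sgd, an estimated 13.1 to 23.1 fragments per library in wild type and at most 5.9 in sgd. The groups overlapped, and a listed 0 need not mean absence. Tested without the filter, its change was -0.23 (limma adjusted p = 0.25).

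In both genotypes the receptor kinases stood above most peptides, but the order of the members differed. In wild type the order of mean levels was ERL1, ER, ERL2, EPFL5, EPFL6, EPFL4, EPFL1, EPFL2, EPFL9 and TMM. There the ranges of ERL1 and ER, of EPFL5 and EPFL6, of EPFL6 and EPFL4, and of EPFL1 and EPFL2 overlapped, while the other neighbours were apart. In sgd the order was ER, ERL1, EPFL5, EPFL4, ERL2, EPFL9, EPFL1, EPFL6, EPFL2 and TMM, and only ERL1 and EPFL5, EPFL5 and EPFL4, and EPFL6 and EPFL2 were apart among neighbours. By mean wild-type level ERL1 stood above 97% of tested features and EPFL9 above 13.5%.

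EPFL2 showed the largest change among the 9 tested members. Its peptide is known from leaf margin teeth and from the spacing of ovules. EPFL2 stood at 5.03, 6.86 and 7.92 FPKM in wild type, against 0.35, 0.26 and 0.42 FPKM in sgd. Every sgd value was far below every wild-type value. Its sgd values correspond to an estimated 5.9, 2.0 and 3.0 fragments, against 91.7, 157 and 207 in wild type, so the size of the fall is imprecise on the linear scale. EPFL2 fell by 2.48 (SE 0.28, 95% interval -3.11 to -1.86, limma adjusted p = 0.000344), the rank of 88 among 18100 features counted from the largest fall. It passed the filter through its wild-type level. Without both replicate 1 libraries the change was -2.65 (limma adjusted p = 0.000858), and with a pseudocount of 0.01 in place of 1 it was -4.23.

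EPFL9, also called STOMAGEN, changed in the other direction. Its peptide promotes stomata, is made in leaf mesophyll, and in the ovary acts with EPFL2 on ovule spacing and fruit growth. EPFL9 stood at 2.24, 2.90 and 2.19 FPKM in wild type, against 11.4, 10.1 and 13.7 FPKM in sgd. The groups lay far apart, and each genotype was tight. EPFL9 rose by 1.88 (SE 0.25, 95% interval 1.32 to 2.43, limma adjusted p = 0.000776), and by 1.85 without both replicate 1 libraries (limma adjusted p = 0.00258). The ratio of EPFL9 to EPFL2 within a library was 0.445, 0.423 and 0.277 in wild type and 32.5, 38.7 and 32.5 in sgd. In wild type EPFL9 was the lowest of the 6 peptides in every library, and in sgd EPFL2 was.

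Because EPFL9 is known from mesophyll, 5 mesophyll genes were set beside it. All were tested, and 1 was called higher, beside 13.3% of all tested features, and none lower by limma (2 higher and 0 lower at an unadjusted p under 0.05), and their summed level was 515 to 1605 FPKM in wild type and 1855 to 3233 FPKM in sgd. RBCS1A, a small subunit gene of Rubisco, was the one called (limma adjusted p = 0.0206), and none of the 5 was at 0. LHCB1.3 stood at 266, 975 and 593 FPKM in wild type, against 999.7, 2374 and 2227 FPKM in sgd. Its groups did not overlap, and its change of 1.70 did not pass (limma adjusted p = 0.0761). LHCB2.1, RCA and LHCA1 overlapped between genotypes and did not pass (limma adjusted p = 0.301, 0.681 and 0.254). The part of mesophyll RNA in the change of EPFL9 was not tested. In whole ovules, fewer cells of a type and less RNA per cell cannot be told apart, for any member.

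The genes EPFL4, EPFL5 and EPFL6 form the CHALLAH group, whose peptides promote stem growth through ER. EPFL6, or CHALLAH, stood at 18.8, 18.0 and 15.7 FPKM in wild type, against 8.44, 10.9 and 8.92 FPKM in sgd. All sgd values were below all wild-type values. EPFL6 fell by 0.83 (SE 0.24, limma adjusted p = 0.0355), and by 0.71 without both replicate 1 libraries (limma adjusted p = 0.013). Leaving out any one wild-type library ended the call (limma adjusted p = 0.0667, 0.171 and 0.109 in order of library), as did leaving out sgd library 2 or 3 (limma adjusted p = 0.0709 and 0.143).

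EPFL5 was the most abundant peptide gene in both genotypes by its mean. It stood at 17.6, 28.7 and 25.03 FPKM in wild type, against 43.8, 52.6 and 45.0 FPKM in sgd. The groups did not overlap. EPFL5 rose by 0.98 (SE 0.27, limma adjusted p = 0.0324), and by 0.84 without both replicate 1 libraries (limma adjusted p = 0.00518). Dropping single wild-type libraries ended the call (limma adjusted p = 0.0581, 0.0678 and 0.0934 in order of library), as did dropping sgd library 2 or 3 (limma adjusted p = 0.116 and 0.101).

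EPFL4 stood at 16.5, 16.3 and 15.1 FPKM in wild type, against 17.6, 29.2 and 32.1 FPKM in sgd. All sgd values were above all wild-type values, but sgd library 1 only just. The change of 0.65 did not pass (SE 0.28, limma adjusted p = 0.151). Without sgd library 1 it was 0.90 (limma adjusted p = 0.0171), without both replicate 1 libraries 0.92 (limma adjusted p = 0.00257), and with array quality weights 0.89 (limma adjusted p = 1.36e-06).

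The CHALLAH genes did not move together. The ratio of EPFL4 to EPFL6 was 0.879, 0.908 and 0.959 in wild type, against 2.08, 2.69 and 3.60 in sgd, and that of EPFL5 to EPFL6 was 0.936, 1.599 and 1.594 against 5.19, 4.85 and 5.05. Both ratios separated the genotypes, which follows from the levels above and adds no further result. The ratio of EPFL5 to EPFL4, at 1.07, 1.76 and 1.66 in wild type and 2.49, 1.80 and 1.401 in sgd, overlapped.

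EPFL1, a peptide gene known from the shoot meristem, stood at 6.09, 7.32 and 9.18 FPKM in wild type, against 7.88, 14.5 and 11.6 FPKM in sgd. The groups overlapped. The change of 0.51 did not pass (SE 0.28, 95% interval -0.12 to 1.14, limma adjusted p = 0.269). It passed without both replicate 1 libraries, at 0.60 (limma adjusted p = 0.0364), with rescaling to equal totals (limma adjusted p = 0.0494) and with array quality weights (limma adjusted p = 9.63e-05). EPFL1 and EPFL2 had similar levels in wild type, with a ratio of EPFL2 to EPFL1 of 0.875 ± 0.0567, and parted in sgd, where it was 0.0329 ± 0.0136 (SD, n = 3).

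The makeup of the peptide transcripts differed between genotypes. Summed over the 6 genes it was 66.2, 80.1 and 75.1 FPKM in wild type, against 89.4, 118 and 112 FPKM in sgd. EPFL2 held 8.91% ± 1.504 of it in wild type and 0.330% ± 0.0941 in sgd, and EPFL6 23.9% ± 3.93 and 8.89% ± 0.787 (SD, n = 3). EPFL9 held 3.31% ± 0.359 and 11.2% ± 2.27, and EPFL5 31.9% ± 4.82 and 44.7% ± 4.345 (SD, n = 3). The shares of EPFL1 and EPFL4 overlapped between genotypes. Summed peptide over summed receptor kinase FPKM was 0.217 ± 0.0254 in wild type and 0.505 ± 0.0799 in sgd (SD, n = 3), with no overlap. That follows from the sums, neither of which overlapped.

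**Figure D3:**
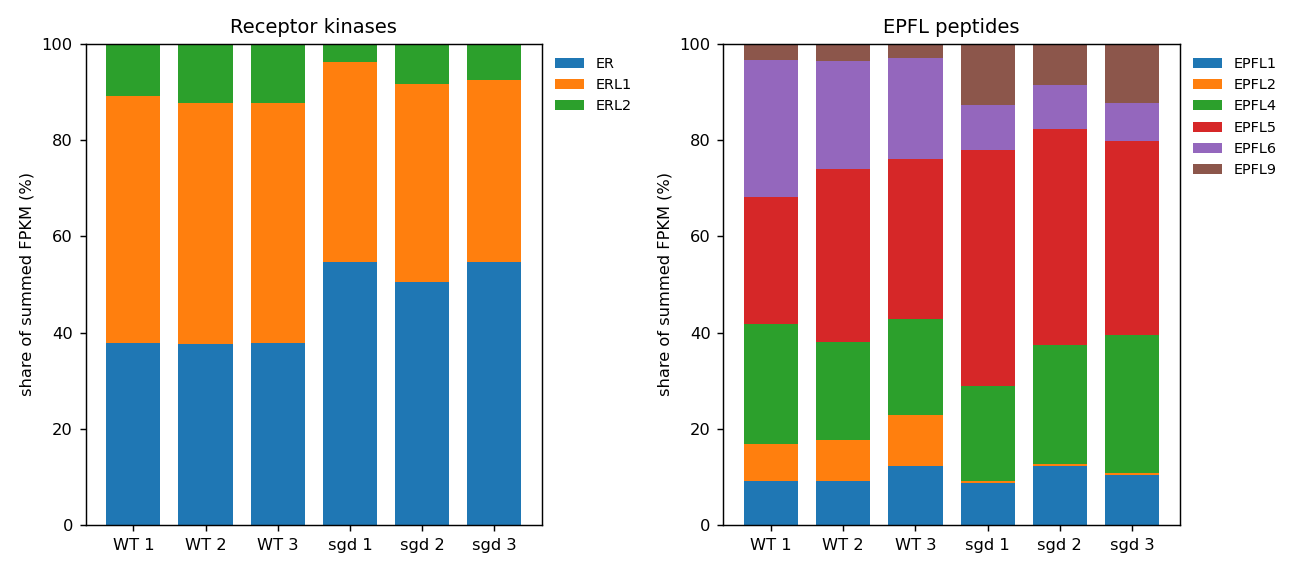
Share of the summed FPKM (vertical axis, %) held by each receptor kinase gene (left) and each of the 6 peptide genes (right) in each library, as stacked bars. ER takes 37.6% to 37.8% of the receptor sum in wild type and 50.6% to 54.6% in sgd, and the band of EPFL2 nearly disappears in sgd.

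Around these members, 4 lists of pathway genes were examined, 43 genes of which 34 were tested. Of these 2 were called higher and 5 lower, beside 13.3% and 4.47% of all tested features. With the replicate block they were 8 and 9, beside 4793 and 2583 of 18100 features. Groups did not overlap for 6 higher and 10 lower, beside 26.8% and 8.8% of all tested features. Their median change was -0.04, beside 0.13 for all tested features.

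Among the 5 other EPF and EPFL genes, 2 of them tested, EPF2 fell and none rose by limma. At an unadjusted p under 0.05 the counts were 2 lower and 0 higher, and with the block 2 fell. Of all tested features 4.47% were called lower, and 2583 of 18100 with the block. EPF2 (AT1G34245), whose peptide limits entry into the stomatal lineage, stood at 4.45, 6.59 and 7.59 FPKM in wild type, against 0.06, 0 and 0 FPKM in sgd. It fell by 2.80 (SE 0.29, limma adjusted p = 0.000245), and by 3.01 without both replicate 1 libraries. Like EPFL2, it passed the filter through its wild-type level. AT3G13898, which encodes another EPF-like peptide, stood at 3.18 ± 0.571 and 1.39 ± 0.110 FPKM (SD, n = 3) without overlap. Its change of -0.80 did not pass (limma adjusted p = 0.066), but did with the block (limma adjusted p = 0.0297), without both replicate 1 libraries (limma adjusted p = 0.0152) and without sgd library 1 (limma adjusted p = 0.0428). EPF1, AT1G71866 and AT1G80133 were under the filter, at 0.39 FPKM or less in every library.

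Of 20 receptor partners, cascade members and processing proteases, all tested, 2 rose, 2 fell and 16 did not pass, with a median change of 0.03. Of all tested features 13.3% were called higher and 4.47% lower. With the block 7 rose and 3 fell, beside 4793 and 2583 of 18100 features. MPK3, the MAP kinase at the end of the cascade that also serves stress responses, stood at 9.34, 8.74 and 13.5 FPKM in wild type, against 34.8, 103 and 119 FPKM in sgd. It rose by 2.76 (SE 0.43, limma adjusted p = 0.00186), and by 3.24 without both replicate 1 libraries. MPK6, its partner in the cascade, stood at 37.8 ± 4.34 and 49.5 ± 3.47 FPKM (SD, n = 3). Its change of 0.38 did not pass (limma adjusted p = 0.36), but did with the block (limma adjusted p = 0.0359), with array quality weights (limma adjusted p = 0.000641) and without both replicate 1 libraries (limma adjusted p = 0.0498). The kinase gene YDA changed by 0.07 (95% interval -0.54 to 0.69), and MKK4 and MKK5 by 0.00 and 0.03, none of them past the threshold (limma adjusted p = 0.901, 0.999 and 0.96). With array quality weights YDA and MKK4 did pass, at 0.21 and 0.32 (limma adjusted p = 0.032 and 0.0403). Under those weights 8190 of 18100 features were called higher and 4421 lower.

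The other 3 calls of that list were proteases and a chaperone. SDD1, a subtilisin-like protease gene that limits stomatal density, had means of 2.02 ± 0.501 and 0.303 ± 0.206 FPKM (SD, n = 3) and fell by 1.21 (limma adjusted p = 0.0226). ATSBT5.2 (AT1G20160), a protease gene whose product is known to cut the EPF2 precursor, had means of 0.247 ± 0.0404 and 2.72 ± 1.09 FPKM (SD, n = 3) and rose by 1.53 (limma adjusted p = 0.00942). Both passed the filter through the genotype in which they were high. ERDJ3B, a chaperone cofactor of the endoplasmic reticulum, had means of 124 ± 40.5 and 44.7 ± 14.3 FPKM (SD, n = 3) and fell by 1.44 (limma adjusted p = 0.0221). Leaving out library 2 or 3 of wild type, or library 3 of sgd, ended the calls of SDD1 (limma adjusted p = 0.132, 0.101 and 0.0504) and of ERDJ3B (limma adjusted p = 0.0766, 0.0798 and 0.0597). Without both replicate 1 libraries the changes were -1.24 for SDD1, 1.77 for ATSBT5.2 and -1.47 for ERDJ3B, and all passed.

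**Figure D4:**
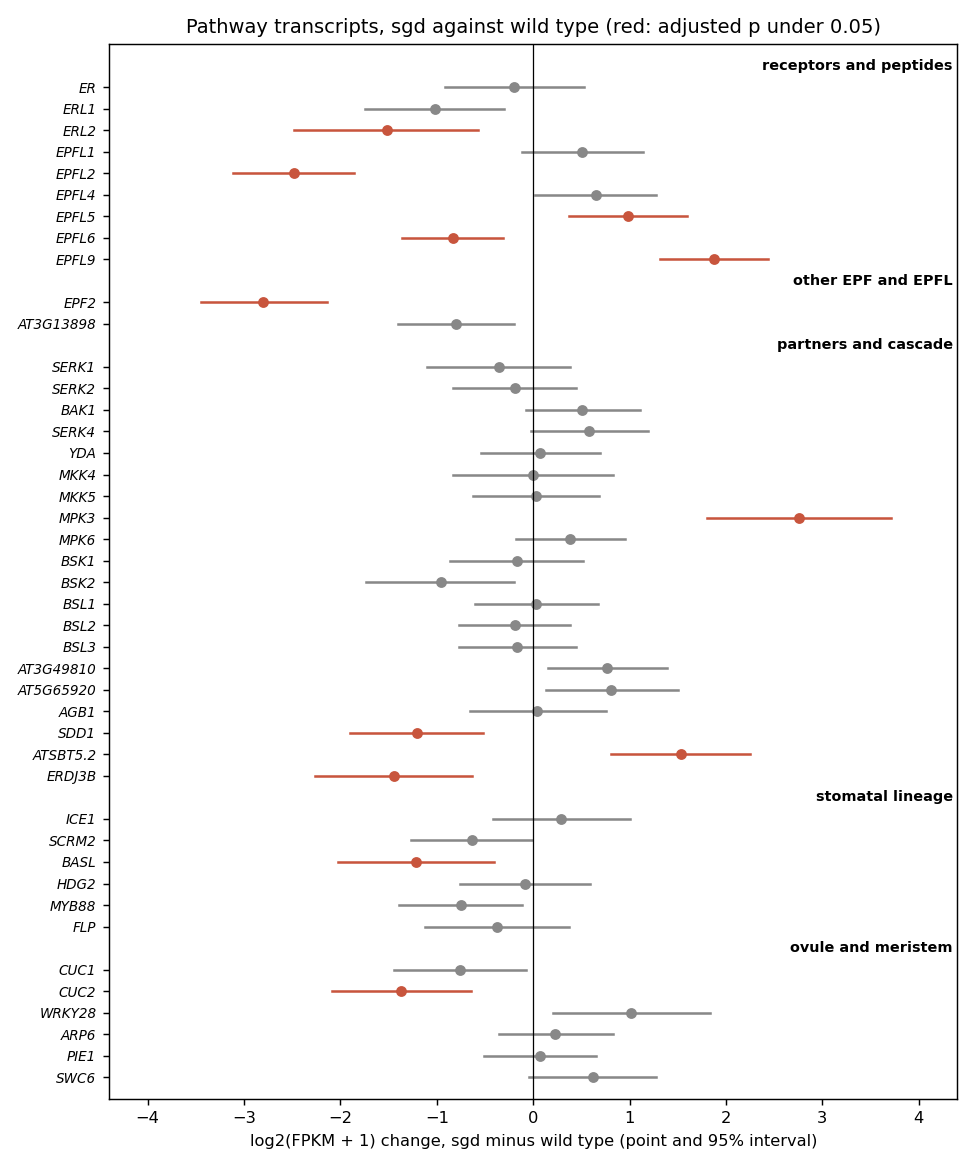
Difference in mean log2(FPKM + 1) between sgd and wild type (positive where sgd is higher), with its 95% interval (horizontal axis), for the 9 tested members and the tested genes of the 4 pathway lists (rows). Red marks an adjusted p under 0.05. EPFL2 and EPF2 lie farthest to the left, at -2.48 and -2.80, and MPK3 farthest to the right, at 2.76.

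The stomatal lineage genes were examined because ERECTA signalling is best known there. The master regulators of that lineage were barely detected, with SPCH at 0.31 FPKM or less, FAMA at 0.10 FPKM or less and MUTE listed at 0 in every library. Of 10 genes 6 were tested, of which 1 fell and none rose by limma, with a median change of -0.51. At an unadjusted p under 0.05 the counts were 3 lower and 0 higher, and with the block 3 fell. Beside these, 13.3% of all tested features were called higher and 4.47% lower, or 4793 and 2583 of 18100 with the block. BASL, a polarity protein gene of asymmetric divisions, had means of 2.35 ± 1.13 and 0.403 ± 0.341 FPKM (SD, n = 3), passed the filter through wild type, and fell by 1.22 (limma adjusted p = 0.0438). That call ended when library 2 or 3 of wild type, or library 3 of sgd, was left out (limma adjusted p = 0.163, 0.186 and 0.0897), with no filter (limma adjusted p = 0.0521) and with a pseudocount of 0.01 (limma adjusted p = 0.0509). Without both replicate 1 libraries it was -1.35 (limma adjusted p = 0.00659). MYB88, a regulator of the last division of the lineage that also acts in female reproduction, stood at 4.28 ± 1.18 and 2.097 ± 0.446 FPKM (SD, n = 3) and did not pass (limma adjusted p = 0.101), but did with the block (limma adjusted p = 0.0324) and without both replicate 1 libraries (limma adjusted p = 0.0145). Of 4 guard cell genes MYB60 alone was tested, and it was not called by limma, nor at an unadjusted p under 0.05 (0 of 1). FAMA and HT1 were under 0.5 FPKM in every library. HT1 was higher in sgd without overlap, at 0.07 to 0.17 FPKM in wild type and 0.25 to 0.46 FPKM in sgd. KAT1 was lower without overlap, at 0.65 to 1.03 FPKM in wild type and 0.03 to 0.58 FPKM in sgd. The list summed to 3.05 to 6.49 FPKM in wild type and 5.63 to 8.72 FPKM in sgd, most of it MYB60.

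Of 8 genes placed with ERECTA signalling in ovules and meristems, 6 were tested, of which 1 fell and none rose by limma. At an unadjusted p under 0.05 the counts were 2 lower and 1 higher. The list median was 0.15, beside 0.13 for all features, and with the block 1 fell and 1 rose. Beside these counts, 13.3% of all tested features were called higher and 4.47% lower, or 4793 and 2583 of 18100 with the block. CUC2, a boundary gene needed for ovule spacing, stood at 20.8, 28.5 and 30.7 FPKM in wild type, against 5.64, 12.0 and 12.7 FPKM in sgd. It fell by 1.37 (SE 0.33, limma adjusted p = 0.0161), and by 1.19 without both replicate 1 libraries, a call that ended when library 2 or 3 of wild type was left out (limma adjusted p = 0.054 and 0.0572). WRKY28, a gene of cells beside the megaspore mother cell, stood at 0.24, 0.43 and 0.41 FPKM in wild type, against 3.35, 0.83 and 1.59 FPKM in sgd. Its change of 1.01 did not pass (limma adjusted p = 0.0861), but did without sgd library 2 (limma adjusted p = 0.0251) and with array quality weights (limma adjusted p = 0.000456). WRKY28 passed the filter through its sgd level, where it was high. ARP6, PIE1 and SWC6, subunits of the SWR1 chromatin complex, did not pass, with changes of 0.23, 0.07 and 0.62. SWC6 did pass with the block (limma adjusted p = 0.0145), under all 3 other scalings (limma adjusted p from 0.0147 to 0.0329), without sgd library 1 (limma adjusted p = 0.0382), without both replicate 1 libraries (limma adjusted p = 0.0102) and with array quality weights (limma adjusted p = 1.42e-05).

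Lists of marker genes of the tissue and of other cells were counted in the same way, beside the 13.3% of all tested features called higher and the 4.47% called lower. Of 7 integument and nucellus genes 5 were tested, of which ANT and BEL1 fell and none rose by limma (3 lower and 0 higher at an unadjusted p under 0.05), and their summed level was 492 to 1066 FPKM in wild type and 195 to 457 FPKM in sgd. Of 5 pollen genes, all tested, 4 rose and none fell by limma (4 higher and 0 lower at an unadjusted p under 0.05), with a summed level of 9.17 to 23.5 FPKM in wild type and 70.7 to 165 FPKM in sgd. Of 5 genes of carpel wall, septum and transmitting tract 2 were tested, of which NTT fell and none rose by limma (1 lower and 0 higher at an unadjusted p under 0.05). CRC, HEC1 and HEC2 of that list were at or near 0 in every library (at most 0.31 FPKM), and the summed level of 115 to 175 FPKM in wild type and 178 to 265 FPKM in sgd was nearly all SHP1, which ovules also express. With the replicate block 4 of the integument and nucellus genes fell, SHP1 rose beside the fall of NTT, and 2 mesophyll genes rose. With that block 4793 of 18100 features were called higher and 2583 lower. The part of these markers in the changes of the receptors and peptides was not tested.

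The genes whose profile over the 6 libraries was most like that of ER were taken from 1881 features with a mean level within 2-fold of it. The closest were LHW (AT2G27230), AT4G39680 and AT1G73230, with root mean square differences of 0.0285, 0.0445 and 0.051 between centred log2(FPKM + 1) profiles. LHW stood at 68.9, 94.2 and 103 FPKM in wild type, against 54.7, 84.4 and 88.7 FPKM in sgd, low in library 1 of each genotype as ER was. The summed FPKM of all features was also lowest in library 1 of each genotype. The part of this library-wide difference in the likeness was not tested.

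The calls were not equally firm across processing choices. EPFL9 passed under all 19 alternatives and EPFL2 under all 18 in which it was tested. ERL2 passed under 15 of 19, EPFL5 and EPFL6 under 14 each, ERL1 under 9, EPFL1 and EPFL4 under 3 each and ER under 2. Apart from ER without sgd library 1, no tested member changed direction under any of them.

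**Figure D5:**
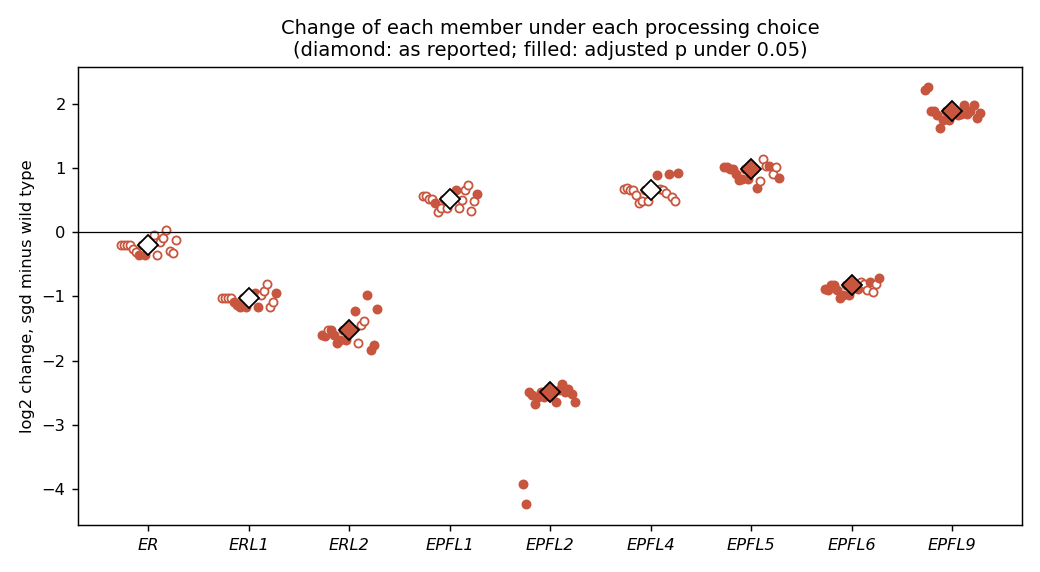
Difference in mean log2 level between sgd and wild type (vertical axis) for the 9 tested members as reported (diamond) and each alternative (circles). Filled symbols have an adjusted p under 0.05. EPFL2 lies between -4.23 and -2.36 and EPFL9 between 1.62 and 2.25, all filled, while ER stays between -0.35 and 0.03.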

How the data were processed

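Poly(A) RNA of ovules was sequenced in 6 libraries, 3 per genotype, numbered 1 to 3 in the labels. The authors deposited FPKM per feature with 2 decimals, per the file headers. TAIR10 is the build named in the submitters' processing notes, which also list RSEM, TopHat2 2.1.1, DESeq2, CASAVA and cutadapt 1.15 without saying what each did. Whether counting used strand, and how reads of similar copies were divided, is not stated. Symbols were looked up in RefSeq annotation (TAIR10.1), where 98.1% of identifiers were found. Its build name differs, so no coordinates or sequences are given. Of 77 listed loci 68 matched by symbol and 9 by locus alone, among them EPFL1 and EPFL2.

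Because FPKM carry no counts, library depth and fragment length were fitted to the spacing of low values in genes annotated without UTRs. At the best fit 90.7% to 97.6% of these values came within 0.2 of whole fragments, the highest share over the depths and fragment lengths tried. Whole multiples of a depth fit such values too, and the lowest was taken. Depths and fragment numbers are therefore rough and could be higher by a whole factor. For features with a mean of at least 1 FPKM, genotypes were compared by limma (version 3.58.1, under R 4.3.3) (two-sided, trended eBayes) after adding a pseudocount of 1 and taking log2, which understates changes of low genes. The fit was also run on simulated data. Those had independent noise in each library, without the library-wide differences seen here, so they cannot check calls against such differences.

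The members and lists were chosen with earlier results of these data known. Named genes are all members, up to 6 called genes per list (the 2 with the smallest p where fewer than 2 passed), and the 3 features most like ER. MPK6, YDA, MKK4, MKK5, the SWR1 subunits, the untested genes and those of the closing observations were named outside that rule, after their values were seen. Alternatives were 2 pseudocounts, 2 filters, 3 scalings, the replicate block alone and with median-ratio scaling, 3 variance models, and left-out libraries. Deviations from group means correlated across features between same-numbered libraries at 0.524, 0.236 and 0.377. Wild-type library 2 with sgd library 3 gave 0.354, and wild-type library 3 with sgd library 2 gave 0.431. Correlations of library 1 with library 2 or 3 of the other genotype were negative, from -0.513 to -0.367. These values set library 1 apart but do not show pairing by number, which is also not stated in the labels. The main fit had no replicate block.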

Additional observations from a re-analysis of the deposited data

How the results depend on the processing

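Members called higher numbered 2 and those called lower 3. Higher members were 4 with array quality weights and 4 without both replicate 1 libraries, and ranged from 1 to 3 when single libraries were left out (3 without sgd library 1, with EPFL4 added, and 1 without wild-type library 1, 2 or 3 or sgd library 2 or 3). Lower members were 5 with median-ratio scaling, alone or with the replicate block, and ranged from 1 to 3 when single libraries were left out. In the replicate block fit 2 members were higher and 4 lower, the addition being ERL1. With single libraries left out the change of ER ranged from -0.35 (without wild-type library 1) to 0.03 (without sgd library 1), where it turned.

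Pathway genes called higher (2) and lower (5) became 1 and 2 with a mean of at least 5 FPKM, 7 and 10 with equal totals, 5 and 15 with quantile normalization, and 6 and 15 with median-ratio scaling. They were 8 and 9 with the replicate block, 5 and 12 with the block and median-ratio scaling, 12 and 14 with array quality weights, and 9 and 11 without both replicate 1 libraries. With single libraries left out they ranged from 2 to 6 higher and 1 to 6 lower.

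Features called higher (2407) and lower (809) became 4135 and 2628 with equal totals, 4793 and 2583 with the replicate block, 8190 and 4421 with array quality weights, and 5690 and 3097 without both replicate 1 libraries. Lower calls were 3726 with quantile normalization, 3393 with median-ratio scaling and 3661 with the block as well. With single libraries left out, higher calls ranged from 1535 to 3496 and lower calls from 407 to 968. The array weights did not reach their convergence tolerance, so calls under them are provisional. Fits without a library test fewer samples; for the other differences the cause was not tested. Depth limits TMM and the sgd levels of EPFL2 and EPF2. TMM and the sgd level of EPFL2 rest on few estimated fragments. Fragments of EPF2 were not estimated, and it was listed at 0.06 FPKM or less in sgd. EPFL2 could not be tested with a mean of at least 5 FPKM.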

Other observations

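Among genes of the lists that stood under the filter, POLAR (AT4G31805), a polarity gene that acts with BASL, and SPL (AT4G27330), a regulator of sporocyte formation also called NOZZLE, were low but separated the genotypes. They were singled out after their values were seen. Of the guard cell genes under the filter, KAT1 was also lower in sgd without overlap, and HT1 was higher without overlap. POLAR stood at 0.66, 1.03 and 1.58 FPKM in wild type, against 0.06, 0.12 and 0.06 FPKM in sgd (libraries 1 to 3). The wild-type mean of SPL was 1.27 ± 0.12 FPKM (SD, n = 3), and its sgd libraries read 0.07, 0 and 0 FPKM. CLV3, a meristem peptide gene, was listed at 0, 0.29 and 0.17 FPKM in wild type and at 0 in all sgd libraries. Its groups therefore overlapped.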
